A study of Macaca fascicularis with 132 samples.

Results

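A group of 55 genes was lower in blood mononuclear cells cultured with interleukin-15 (IL-15) than in control cultures at 12, 24 and 48 h, with an effect at 2 h above -0.3 and a limited rise in control culture by 24 h. They are 55 of the 38550 gene rows counted, and 55 of the 10811 rows whose mean reached 5 CPM in a control group, where CPM is the gene's share of all counts scaled to a fixed library size. The choice used log2(CPM + 1), averaged over 4 animals. The IL-15 effect, IL-15 minus control at the same time, had to be -1 or lower at 12, 24 and 48 h and above -0.3 at 2 h. The control change, control at 24 h minus control at 0 h, had to be below 1. These values chose the members, so the effects themselves are given as a description, with no test, and the sexes alone are compared on them. The comparison at 6 h entered the choice only through the minimum of 5 CPM, and with a minimum of 1 CPM the same rule also returned 55 genes. The 6 h comparison is therefore the IL-15 effect that was tested.

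The cells, a mixture of lymphocytes and monocytes from the blood of the cynomolgus macaque Macaca fascicularis, were treated outside the body. The libraries came from 4 animals, the females 38142 and 38155 and the males 38147 and 38157, whereas the design text of the series speaks of 6 animals; any others are not analysed here. Control cultures at 0 ng/ml were sampled at 0, 2, 6, 12, 24 and 48 h, and cultures given the heterodimer of IL-15 and its receptor alpha chain at 40 ng/ml at 2, 6, 12, 24 and 48 h. Each of the 11 groups held 12 libraries, 3 for each animal, whose counts were summed to 44 sums. The labels do not say whether these 3 libraries were separate cultures, so the animal is the replicate. In edgeR the spread behind a p-value was estimated for each gene over all 11 groups, after a term for the animal. A p-value at 6 h thus carries the spread at the other times too. The genotype and age of the animals are not given in the labels used here.

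IL-15 is a cytokine that binds receptor chains it shares with interleukin-2 and signals through JAK kinases and STAT transcription factors. It sustains natural killer cells and memory CD8 T cells, and in mixed blood cells it also reaches other types, directly or through the cytokines that lymphocytes release. Its alpha chain presents the cytokine to neighbouring cells, which is the form used here. The files do not pair the gene IDs with symbols, and 0 IDs could be matched, so the roles of the members, the markers of cell types and the pathway lists could not be examined. In bulk RNA of this kind, fewer cells of a type and less RNA per cell cannot be told apart.

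Libraries held between 16423972 and 87944372 counts (median 27185130) and sums between 54376963 and 126025607. Of all libraries, 3 lay far from both libraries of the same animal and group, 1 each in the control group at 2 h, the control group at 48 h and the IL-15 group at 24 h. None of them was at 0 or 6 h, and without them the choice returned 58 genes, 53 of them among the 55.

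At the threshold of the 2 h effect, the last gene inside was at -0.26 and the first outside at -0.30. At 12, 24 and 48 h the last genes inside were at -1.01 each, and the first outside at -0.98, -0.80 and -0.999. For the control change at 24 h they were 0.97 and 1.00. Altogether 99 genes had effects of -1 or lower at all 3 late times. Outside the group stood 31 of them by the control change, 8 by the effect at 2 h and 5 by both.

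The members covered a wide range of abundance. Their mean level before culture had a median of 46.99 CPM and ranged from 1.44 to 1706 CPM, against a median of 28.5 CPM over all genes of at least 5 CPM. At 0 h 18 members were at 100 CPM or above and 8 under 10 CPM. CPM is not corrected for gene length, so these levels do not rank the members against each other. The animals also differed in them before any treatment. The SD over the animals of the log2(CPM + 1) level at 0 h had a median of 0.505 over the members and 0.225 over all genes. In 8 members the highest animal was more than 4 times the lowest.

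Summed over the members, the level was 6153, 9042, 6440 and 5149 CPM at 0 h in animals 38142, 38147, 38155 and 38157, a mean of 6696 ± 1659 (SD, n = 4) or 0.670% of all counts. Control cultures at 24 h had sums of 5411, 6793, 5854 and 5796 CPM, with a mean of 5964 ± 587 (SD, n = 4). The IL-15 cultures at 24 h had 1437, 2891, 1566 and 2204 CPM, with a mean of 2024 ± 668 (SD, n = 4) or 0.202% of all counts. All 4 IL-15 sums lay below all 4 control sums at that time, and the male 38147 was the highest in both. At 6 h the sums were 5546, 6660, 6527 and 4684 CPM in control and 3822, 5007, 3633 and 3174 CPM with IL-15. Each animal was lower with IL-15 at 6 h, although the groups overlapped, since animal 38147 with IL-15 was above animal 38157 in control. The mean with IL-15 was 4793 ± 575, 3909 ± 781, 2723 ± 1101 and 2045 ± 671 CPM (SD, n = 4) at 2, 6, 12 and 48 h. After 0 h the mean of the control cultures lay between 5177 CPM at 2 h and 6254 CPM at 12 h. With levels averaged over all animals and groups, the single most abundant member made up 21.02% of the sum and the 5 most abundant 46.6%. The sums thus describe the abundant members more than the others.

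**Figure D1:**
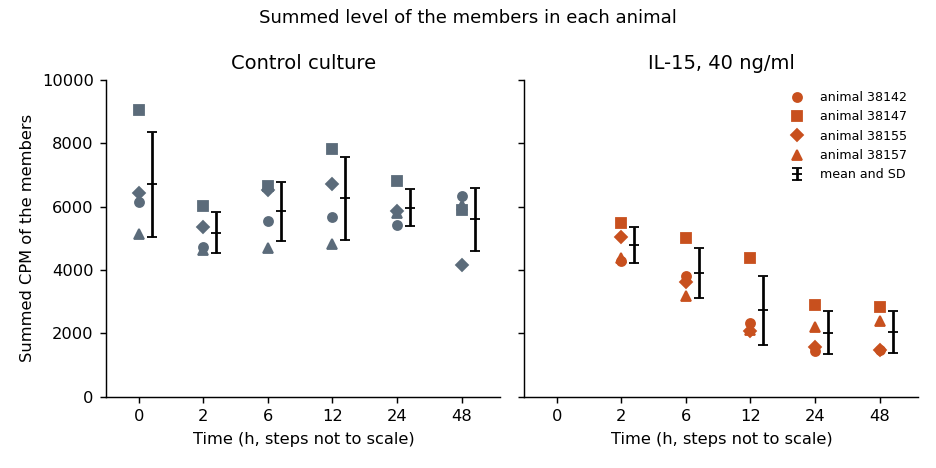
Summed CPM of the 55 members (vertical axis) against time in culture (horizontal axis, h, steps not to scale), for control cultures on the left and IL-15 cultures (40 ng/ml) on the right. Each symbol is 1 animal, and bars are the mean and SD of the 4 animals; control means lie between 5177 and 6696 CPM, and the IL-15 mean is 4793 CPM at 2 h and 2024 CPM at 24 h.

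The IL-15 effects of the members deepened to 24 h. The median effect was -0.10, -0.47, -1.19, -1.54 and -1.34 at 2, 6, 12, 24 and 48 h. Over all genes of at least 5 CPM the medians were 0.02, -0.03, -0.15, -0.14 and -0.07 at these times. At 2 h the members ranged from -0.26 to 0.32, and 43 of the 55 were below 0, as were 42.96% of all genes; with TMM scaling 49 members were below 0. At 12 h they ranged from -2.15 to -1.01, at 24 h from -4.16 to -1.01 and at 48 h from -3.28 to -1.01. All of these but the 6 h value were set or limited by the choice of members.

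Members differed in when the effect was widest. The widest effect came at 24 h in 36 members, whereas 16 had it at 48 h and 3 at 12 h. From 12 to 24 h the effect became more negative in 48 members, with a median change of -0.31. Over all genes of at least 5 CPM, 48.6% had a change below 0, with a median of 0.005. From 24 to 48 h the members' effect became less negative in 39 and more negative in 16, with a median change of 0.19. Over all these genes, 39.5% had a change below 0, with a median of 0.06. An effect of -2 or lower was found in 1, 9 and 4 members at 12, 24 and 48 h, and an effect of -3 or lower in 2 members at 24 h.

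**Figure D2:**
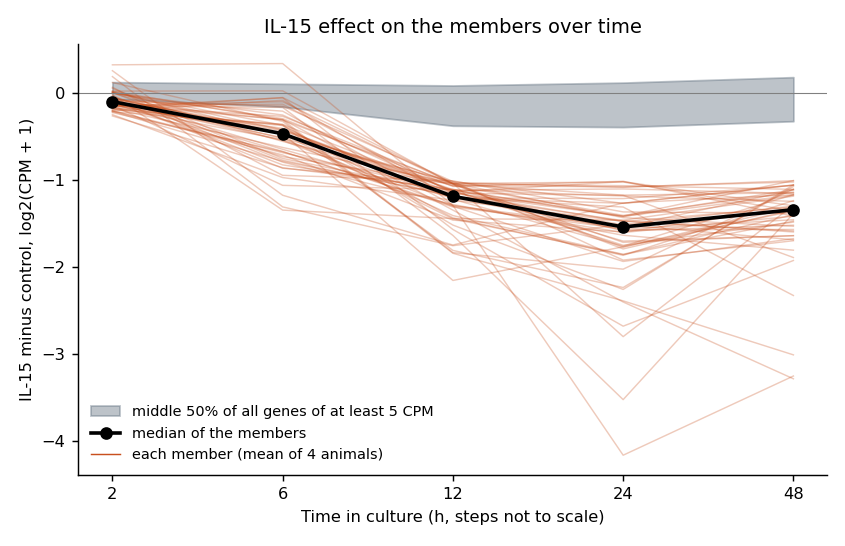
IL-15 effect (vertical axis, IL-15 minus control, log2(CPM + 1)) against time in culture (horizontal axis, h, steps not to scale). Thin lines are the 55 members, each the mean of 4 animals, the black line is their median, at -0.47 at 6 h and -1.54 at 24 h, and the grey band is the middle 50% of all genes of at least 5 CPM.

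In the values that chose the members, the direction at the late times was shared by the animals more than the size. Every animal had all 55 members below its control at both 12 and 24 h, and 52 members were so in every animal at 48 h. The 3 others were higher with IL-15 in animal 38147 at 48 h. The mean effect had to be -1 or lower at 12, 24 and 48 h, so these counts largely follow from the choice. By animal, 59.6% to 68.3%, 58.3% to 68.3% and 54.9% to 59.1% of all genes were below control at these times. An effect of -1 or lower in every animal was found in 10, 26 and 24 members at these times. In animal 38155 the members' median effect was -1.66, -1.93 and -1.31 at 12, 24 and 48 h. In animal 38142 it was -1.19, -1.68 and -1.77 at these times. In animal 38147 it was -0.85, -1.34 and -1.12, and in animal 38157 -1.12, -1.23 and -1.26. The SD over the animals of the 24 h effect had a median of 0.383 over the members and 0.213 over all genes.

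The choice was repeated in 3 animals at a time, and the effect averaged over 12, 24 and 48 h was read in the animal left out. Choosing without animal 38142 returned 39 genes, of which 38 were at -1 or lower in that animal, against 4.14% of all genes. Without animal 38155 it returned 42 genes, and 39 of them were at -1 or lower there, against 4.52% of all genes. Without animal 38157 it returned 55 genes, and 38 of them were at -1 or lower there, against 1.83%. Without animal 38147 it returned 77 genes, and 34 of them were at -1 or lower there, against 2.14%. The genes' median in the animal left out was -1.51 in 38142, -1.50 in 38155, -1.22 in 38157 and -0.95 in 38147. In animal 38147 76 of the 77 were below 0 and the highest was at 0.24, whereas in each of the other animals all genes chosen without it were below 0. Of the genes so chosen, 35, 35, 47 and 52 were among the 55 when 38142, 38155, 38157 and 38147 were left out.

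In the late effects, which chose the members, the 2 females were wider on average, but no member passed the test of that difference. The effect averaged over the late times had a median of -1.62 over the members in the 2 females and -1.08 in the 2 males. Of the 55 members, 50 were more negative in the females. The median difference, females minus males, was -0.49 over the members and -0.005 over all genes tested. In limma, 0 members had a Benjamini-Hochberg adjusted p under 0.05, as did 0% of the 18197 genes tested, and the smallest adjusted p of a member was 0.233. At an unadjusted p under 0.05, limma returned 28 members, all lower in females, and 7.3% of all genes. The members were chosen for wide effects at these same times. Nothing about sex is therefore read from their medians, or from their counts beside those of all genes. An interaction of sex and treatment in edgeR also returned 0 members after adjustment and 25 before it. Of the 18197 genes tested it returned 16 after adjustment and 1740 before it. With 2 animals of each sex, sex cannot be told apart from other differences between the animals.

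At 6 h, a time whose effect the choice did not use, 23 of the 55 members were already lower with IL-15. edgeR's quasi-likelihood test at a Benjamini-Hochberg adjusted p under 0.05 returned these 23 as lower and 0 as higher, where it returned 3.54% of all 18197 genes tested as lower and 5.12% as higher. Among the genes of at least 5 CPM it returned 4.7% as lower. At an unadjusted p under 0.05, 26 members passed, all of them lower, and DESeq2 returned 24 as lower and 0 as higher after adjustment. The median log2 fold change was -0.45 over the members and -0.01 over all genes. Leaving out animal 38142 lowered the count to 15, and fitting both groups at 6 h alone raised it to 39. The share of all genes called lower moved as well, to 1.84% and 14.3%.

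The values behind this test had the same order in most animals. Of the 55 members, 53 had a mean effect below 0, against 56.1% of all genes. In 43 the effect was below 0 in 4 of 4 animals, as in 30.4% of all genes, in 9 it was so in 3 animals and in 3 in fewer. The mean effects ranged from -1.34 to 0.34. They were at -1 or lower in 4 members and at -0.5 or lower in 25, while 8 members lay within 0.2 of 0. The median over the members was -0.51 in animal 38142, -0.31 in 38147, -0.79 in 38155 and -0.39 in 38157, and 52, 51, 52 and 48 members were lower in these animals.

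The 23 members that passed at 6 h had log2 fold changes from -1.54 to -0.44 in edgeR, with a median of -0.77 and a median SE of 0.152. All 23 were lower in 4 of 4 animals. The 32 others had log2 fold changes from -0.66 to 0.44, with a median of -0.37, and 20 of them were lower in 4 of 4 animals. Their median SE was 0.355, and its part in the calls was not tested. The median late effects of both sets lay closer at 12 and 48 h than at 24 h, and no test compared them. Their medians at 12, 24 and 48 h were -1.18, -1.43 and -1.32 for the 23 and -1.203, -1.74 and -1.35 for the 32. All 9 members with a 24 h effect of -2 or lower were among the 32. Across the 55 members, which share the 4 animals and their libraries, the effect at 6 h had a Pearson correlation of 0.07, -0.39 and -0.20 with those at 12, 24 and 48 h. These correlations describe the members only.

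**Figure D3:**
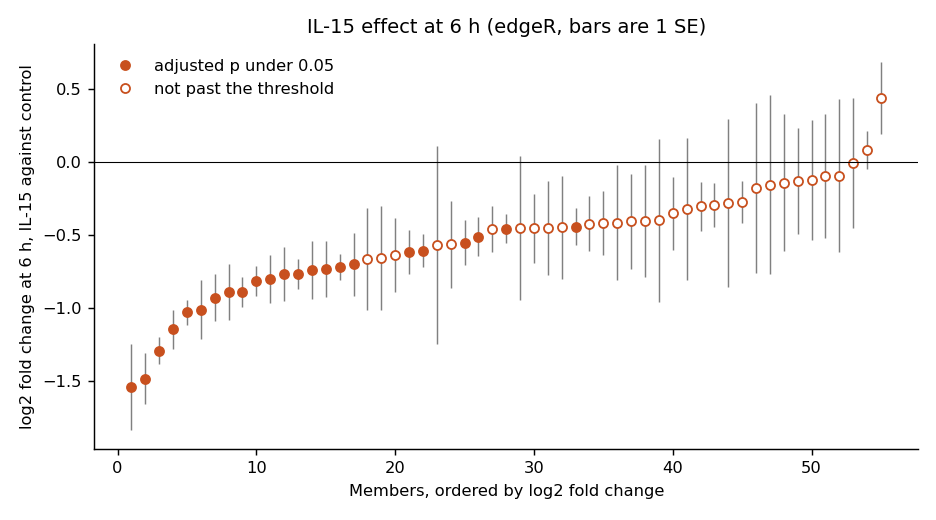
log2 fold change of IL-15 against control at 6 h (vertical axis, edgeR) for the 55 members, ordered by that value (horizontal axis). Bars are 1 SE of each estimate; filled points are the 23 members with an adjusted p under 0.05, which lie between -1.54 and -0.44, and open points are the 32 others.

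The member with the lowest adjusted p at 6 h, described without its ID, was also the one whose level rose most in control culture by 6 h. In control it was at 34.1, 29.9, 50.3 and 33.9 CPM at 0 h and at 130, 98.3, 203 and 180 CPM at 6 h, in animals 38142, 38147, 38155 and 38157. With IL-15 at 6 h it was at 52.6, 45.7, 70.5 and 70.7 CPM. All 4 IL-15 values lay below all 4 control values at 6 h, and 4 of 4 animals were still above their own level at 0 h. In edgeR its log2 fold change was -1.29 ± 0.09 (SE) for IL-15 against control, with an adjusted p of 1.75e-12, and 1.84 ± 0.10 for control at 6 h against 0 h, with an adjusted p of 1.39e-17. At 24 h it was at 54.8, 57.6, 84.8 and 61.4 CPM in control and at 20.1, 16.2, 30.9 and 21.95 CPM with IL-15, below the level at 0 h in every animal.

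The most abundant member at 0 h stood at 1246, 3219, 1640 and 721 CPM before culture in the same order of animals. In control at 6 h it was at 1197, 2373, 1678 and 892 CPM, and with IL-15 at 806, 1671, 913 and 534 CPM. Each animal was lower with IL-15, but the animals differed more among themselves than the treatment moved them, and the groups overlapped. The log2 fold change in edgeR was -0.64 ± 0.25 (SE), with an adjusted p of 0.122, so this member did not pass. At 24 h control levels of 1022, 1479, 1285 and 983 CPM stood against 252, 889, 321 and 370 CPM with IL-15, and these groups did not overlap.

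The member with the highest effect at 6 h was one of low level. It was at 5.40, 3.07, 7.85 and 3.75 CPM in control at 6 h and at 6.34, 4.63, 8.05 and 6.47 CPM with IL-15, higher in 4 of 4 animals. The log2 fold change in edgeR was 0.44 ± 0.25 (SE), with an adjusted p of 0.324. At 24 h the same gene was at 3.62, 3.53, 8.87 and 3.78 CPM in control and at 1.17, 0.586, 0.914 and 0.765 CPM with IL-15. In 4 of 4 animals the order of both cultures at 24 h was thus opposite to that at 6 h.

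In control culture alone the share of members called lower at 6 h was near that of all genes, and the share called higher was below it. Against 0 h, edgeR returned 15 members as lower and 6 as higher in control at 6 h, where it returned 25.5% of all genes in each direction. The 0 h sums also entered the choice of members through the control change at 24 h. With IL-15 at 6 h against control at 0 h, 40 members were lower and 1 was higher, against 25.9% and 27% of all genes. The median log2 fold changes were -0.30 in control and -0.88 with IL-15. The count of 15 was 24 with both groups alone, 26 with single libraries in place of sums and 7 without the animal term. Beside these, 29.9%, 34.7% and 15.2% of all genes were lower. The count of 6 was 11 with single libraries, where 5176 of 15917 genes were higher. The count of 40 was 19 without the animal term, where 15.7% of all genes were lower.

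Measured against the level at 0 h, the IL-15 cultures went below it in 43, 46, 54 and 55 members at 2, 6, 12 and 48 h. At 24 h the count of 55 follows from the choice. By 1 or more on the log2 scale they were below it in 16, 17, 29, 36 and 36 members at 2, 6, 12, 24 and 48 h. At 24 h 30 members were above the 0 h level in control and below it with IL-15, and 25 were below it in both. In control at 24 h, 28.5% of all genes of at least 5 CPM were below it. Scaled by TMM in place of total counts, 22 members were above the 0 h level in control at 24 h. The median control change of all genes was 0.33 at 24 h with total counts and 0.01 with TMM, so control changes of members are best read relative to that shift.

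By their control change at 24 h the members fell into 11 that were lower by 0.5 or more, 24 within 0.5 and 20 higher by 0.5 or more; with TMM scaling these counts were 18, 33 and 4. In the first set the median control change was below 0 at every time, with values of -0.67, -0.89, -0.91, -1.04 and -1.31 at 2, 6, 12, 24 and 48 h. Their median IL-15 effects were -0.31, -1.43, -2.02 and -1.46 at 6, 12, 24 and 48 h. With IL-15 at 24 h their median change from 0 h was -3.52. The 24 members within 0.5 had median effects of -0.45, -1.13, -1.51 and -1.24 at 6, 12, 24 and 48 h and a median change of -1.66 from 0 h with IL-15 at 24 h.

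The 20 members that were higher in control by 0.5 or more at 24 h had median control changes of 0.18, 0.59, 0.69 and 0.77 at 6, 12, 24 and 48 h. Their median IL-15 effects were -0.75, -1.16, -1.45 and -1.39 at these times. Their median change from 0 h with IL-15 at 24 h was -0.72. At 6 h edgeR returned 15 of these 20 as lower with IL-15, 7 of the 24 within 0.5 and 1 of the 11 that were lower in control, beside 4.7% of all genes of at least 5 CPM. The median SE of the 6 h log2 fold change moved with these sets, at 0.148, 0.248 and 0.485, and its part in the counts was not tested. The difference between the sets was not tested either.

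**Figure D4:**
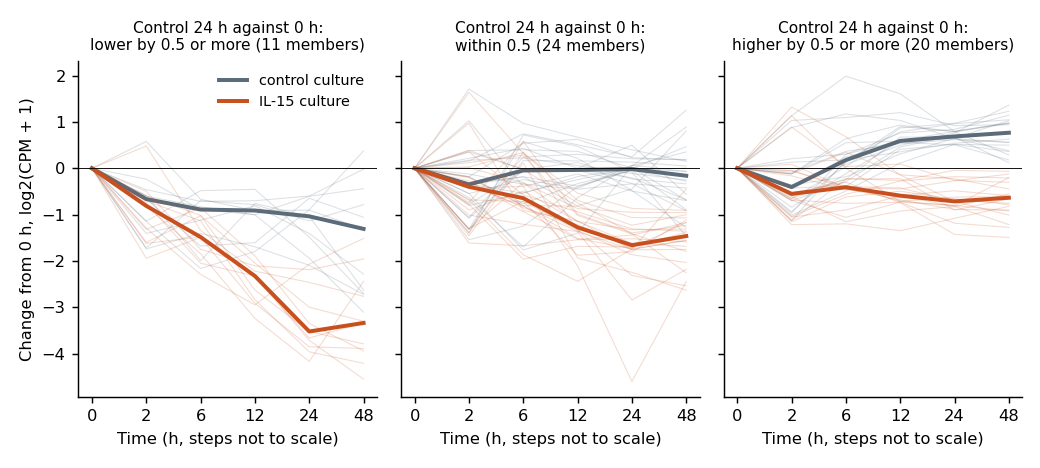
Change from control at 0 h (vertical axis, log2(CPM + 1)) against time in culture (horizontal axis, h, steps not to scale) for members grouped by their control change at 24 h. Thin lines are single members and thick lines medians, grey for control and orange for IL-15 cultures; at 24 h the IL-15 medians are -3.52, -1.66 and -0.72 from the left panel to the right.

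The 9 members with a 24 h effect of -2 or lower stood at 14.8 to 422 CPM at 0 h. In control at 24 h all 9 were below their 0 h level, as were 16 of the 46 others. Of all genes of at least 5 CPM, 28.5% were. None of the 9 passed the test at 6 h in edgeR, where their mean effects lay between -0.37 and -0.05. Of the 46 others 23 passed, and of all genes of at least 5 CPM 4.7% were called lower. The median SE of the 9 at 6 h, which draws on the spread in all groups, was 0.559, against 0.190 for the others. The effects of the 9 also varied more between animals at 24 h, with a median SD of 1.17 against 0.350. At 48 h the effect was less negative than at 24 h in 7 of the 9 and in 32 of the 46 others.

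Among members of at least 20 CPM in control at 24 h, ENSMFAG00000030667 had the lowest effect averaged over the late times. Before culture it was at 344, 116.3, 163 and 414 CPM in animals 38142, 38147, 38155 and 38157. At 6 h it was at 310, 103.96, 163 and 308 CPM in control and at 281, 87.7, 143 and 257 CPM with IL-15. All 4 animals were slightly lower with IL-15 at 6 h, and the groups overlapped over most of their range. In edgeR the log2 fold change at 6 h was -0.15 ± 0.61 (SE), with an adjusted p of 0.936. The effect per animal at 6 h was -0.21 ± 0.05 (SD, n = 4), a narrower spread than that SE, which draws on all groups.

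At 24 h ENSMFAG00000030667 was at 201, 195, 70.9 and 281 CPM in control and at 5.45, 23.7, 0.585 and 30.1 CPM with IL-15. The groups did not overlap, and the IL-15 level in animal 38155 rested on 48 counts of its sum. The mean effect per animal was -4.16 ± 1.26 (SD, n = 4), a 17.9-fold lower geometric mean of CPM + 1. At 48 h control stood at 800, 556, 117.4 and 484 CPM and IL-15 at 35.5, 110, 6.31 and 104.3 CPM. The levels were above those at 24 h in all 4 IL-15 cultures and in all 4 controls, and the effect was -3.25 ± 1.15 (SD, n = 4).

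ENSMFAG00000035180 had the next lowest late effect. It was at 96.1, 156, 64.9 and 103.02 CPM at 0 h and at 38.2, 27.7, 31.1 and 23.4 CPM in control at 2 h. Its control level at 2 h was thus lower than at 0 h in every animal, and with IL-15 at 2 h it was at 38.5, 32.9, 33.1 and 26.1 CPM. At 6 h the values were 72.9, 114.99, 73.99 and 22.4 CPM in control and 59.4, 92.4, 59.6 and 16.8 CPM with IL-15. All 4 animals were lower at 6 h with IL-15, and the log2 fold change in edgeR was -0.28 ± 0.58 (SE), with an adjusted p of 0.858. The effect per animal at 6 h was -0.33 ± 0.05 (SD, n = 4), again a narrower spread than the SE.

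At 24 h ENSMFAG00000035180 was at 42.5, 65.6, 35.1 and 41.6 CPM in control and at 3.98, 39.7, 2.79 and 6.76 CPM with IL-15. Animal 38147 alone kept a level inside the range of the controls, and the other 3 IL-15 cultures lay far below it. At 48 h the control values were 88.2, 75.3, 27.1 and 60.9 CPM and the IL-15 values 1.61, 32.3, 1.69 and 11.1 CPM. Animal 38147 was again the highest with IL-15, above the control of animal 38155. The mean effect was -2.39 ± 1.17 at 24 h and -3.01 ± 1.65 at 48 h (SD, n = 4).

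The members with the highest control change at 48 h, among those of at least 20 CPM there, were ENSMFAG00000002871 and ENSMFAG00000046209. ENSMFAG00000002871 was at 11.9, 10.2, 31.9 and 20.5 CPM at 0 h and at 24.98, 26.8, 78.02 and 77.3 CPM in control at 48 h. With IL-15 at 48 h it was at 5.63, 8.52, 34.98 and 24.5 CPM. Every animal was above its own 0 h level in control at 48 h. With IL-15 animals 38142 and 38147 were below theirs and 38155 and 38157 above.

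At 24 h ENSMFAG00000002871 was at 12.2, 18.1, 67.5 and 47.6 CPM in control and at 3.25, 5.66, 21.5 and 16.1 CPM with IL-15. The groups overlapped because animals 38155 and 38157 had higher levels in both cultures, yet the effect was nearly the same size in all animals, -1.57 ± 0.06 (SD, n = 4). At 6 h control stood at 9.27, 8.43, 44.9 and 27.97 CPM and IL-15 at 5.91, 5.40, 32.8 and 22.5 CPM. The log2 fold change at 6 h in edgeR was -0.46 ± 0.16 (SE), lower in 4 of 4 animals, with an adjusted p of 0.0641. It did not pass with any 1 animal left out, at adjusted p-values in edgeR from 0.112 to 0.230, or without the animal term, at an adjusted p of 1. It passed the threshold with the RLE size factors in edgeR, at an adjusted p of 0.0492, and in DESeq2, at an adjusted p of 0.0341.

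ENSMFAG00000046209 was at 5.23, 7.44, 14.03 and 15.5 CPM at 0 h and at 12.0, 34.4, 14.7 and 57.6 CPM in control at 48 h. In animal 38155 the control level was nearly that at 0 h, whereas the other 3 were higher. With IL-15 at 48 h it was at 1.35, 4.24, 3.88 and 10.1 CPM, below every control value. The mean effect was -1.31 ± 0.25 at 24 h and -2.33 ± 0.45 at 48 h (SD, n = 4). At 6 h the log2 fold change in edgeR was -0.40 ± 0.39 (SE), with an adjusted p of 0.641. For control at 6 h against 0 h it was 0.66 ± 0.39 (SE), with an adjusted p of 0.160, and it was 1.01 without animal 38157, with an adjusted p of 0.00447. Without animal 38147 it was 0.29, with an adjusted p of 0.648 in edgeR.

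**Figure D5:**
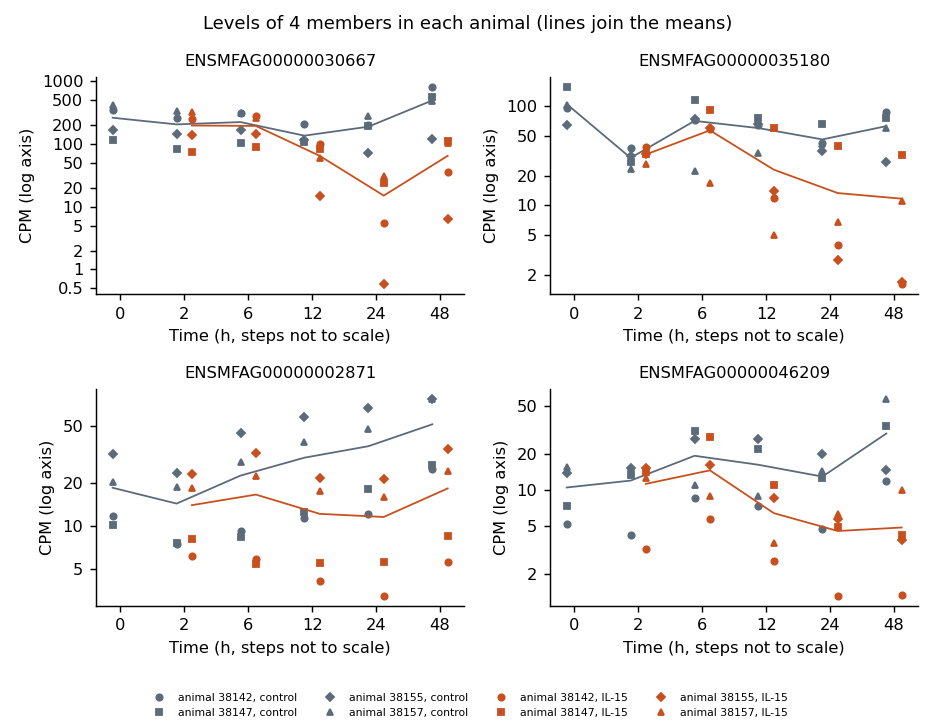
CPM on a log axis (vertical) against time in culture (horizontal, h, steps not to scale) for 4 members, with 1 symbol per animal and lines through the arithmetic means, grey for control and orange for IL-15. At 24 h ENSMFAG00000030667 had 70.9 to 281 CPM in control and 0.585 to 30.1 CPM with IL-15, while ENSMFAG00000035180 stayed at 39.7 CPM in animal 38147.

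Members without a printed ID varied as widely. One with the lowest control change at 48 h was at 66.9, 197, 141 and 19.5 CPM at 0 h and at 9.05, 13.9, 4.28 and 8.01 CPM in control at 48 h. With IL-15 at 48 h it was at 0.926, 17.3, 1.55 and 2.72 CPM. In animal 38147 its IL-15 value was above its control value, and in the other 3 animals it was below. The member whose effect came back most from 24 to 48 h was at 312, 499, 76.9 and 316 CPM in control and at 14.8, 66.7, 2.06 and 66.8 CPM with IL-15 at 24 h. At 48 h its control values were 467, 278, 24.1 and 377 CPM and its IL-15 values 57.9, 142, 20.6 and 145 CPM. All 4 IL-15 cultures were higher at 48 than at 24 h, and the control of animal 38155 was nearly as low as its IL-15 culture.

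Some genes with the same late effects that stood outside the group for another value also passed as lower at 6 h. Of the 31 with a control change of 1 or more, edgeR returned 15 as lower, with a median log2 fold change of -0.74. Of the 8 with a 2 h effect of -0.3 or lower it returned 5, with a median of -0.66, beside the 23 of 55 members and their median of -0.45, and 4.7% of all genes of at least 5 CPM. These comparisons share their samples, and the differences between the sets were not tested.

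By unexplained tokens in their column names the libraries fall into 6 sets, which may be batches. Within sets, members were compared between the IL-15 and control libraries at 6 h, though the animals differ between them. In the set Lib1_GL67, with 5 IL-15 and 2 control libraries, the median member effect was -0.48 and 47 of 55 were lower, against 61.7% of all genes. In Lib2_GL75, with 3 and 2 libraries, it was -0.57 and 43 were lower, against 65.1%. In Lib1_GL66, with 3 and 1, it was -0.24 and 40 were lower, against 57.3%, and in the merged set, with 1 and 1, it was -0.63 and 46 were lower, against 48.6%. In each of the first 3 of these sets 1 animal had libraries on both sides, and in the merged set 0 animals did. Of the other 2 sets, Lib1_GL75 held 6 control libraries and 0 IL-15 libraries at 6 h, and Lib1_GL76 held 0 of each. No value could be had there, and the sets were unevenly spread over both groups at 6 h. With the token as a term in a fit of single libraries, an alternative chosen after seeing the data, edgeR returned 34 members as lower and 0 as higher at 6 h. It returned 11.3% of all genes as lower.

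The scaling moved the size of the late effects, not their direction. With TMM in place of total counts, the median effect of all genes at 12, 24 and 48 h was 0.02, 0.02 and 0.05, and that of the members -1.02, -1.37 and -1.21. All 55 members stayed below 0 at the 3 late times, the highest late effect being -0.84. Chosen with TMM, 29 genes met the limits, 23 of them among the 55. Of the 32 members that did not, 31 had a late effect above -1.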

How the data were processed

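The authors deposited whole-number counts per gene of poly(A) RNA libraries (RNeasy Mini and KAPA mRNA HyperPrep kits, per the labels' protocols) as a table with cynomolgus and a table with rhesus gene IDs. For the aligner, counter, build and annotation, the entry is "not given in the sources used here". Results rest on the cynomolgus counts, with the rhesus counts as an alternative. The members, lists and rules were chosen with earlier results of these data known.

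The 3 libraries of an animal and group were summed. CPM in the choice of members used total counts. Tests used edgeR 4.0.16 in R 4.3.3 (quasi-likelihood, TMM, filterByExpr, robust, all 44 sums, terms for group and animal) over 18197 genes, which all 55 members entered, with Benjamini-Hochberg adjustment. An SE given for edgeR is the absolute log2 fold change divided by the square root of the test's F statistic. The sexes were compared with limma 3.58.1 (trend, robust), and DESeq2 1.42.0 was an alternative. Tables and figures used Python 3.11.15 with pandas 2.3.3, numpy 2.4.6 and matplotlib 3.10.9. The tests were run on simulated data with known answers first.

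The labels give the same animals in every group, so animals pair the samples. Deviations of an animal's IL-15 and control sums from their group means correlated above 0.1 in 20 of 20 pairs, with a lowest r of 0.578 and a median of 0.807. No libraries of an animal and group agreed within sampling noise, with chi-square per degree of freedom at 3.57 or above in every pair. Counts of PCR-amplified reads are not independent molecules, so counting error understates the spread.

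With no symbols, at most 4 IDs are named. These are the 2 members with the lowest mean effect at 12, 24 and 48 h among those of at least 20 CPM in control at 24 h, and the 2 with the highest control change at 48 h among those of at least 20 CPM there. Other members described were picked after their values were seen. Alternatives changed the normalization, filter, tool, samples, pairing, animals, libraries and the limits of the choice.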

Additional observations from a re-analysis of the deposited data

Results flagged for a closer look

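Over 60 groups of 4 animals, 4 held an animal whose gap to the nearest other was most of the group's range. These groups covered the levels of the 4 named members, the summed level and the members' median effect at each time. Chance would give about 3, at 1 in 20 groups. The summed level of the members with IL-15 at 12 h was 4365 CPM in animal 38147 and 2079 to 2330 CPM in the others. ENSMFAG00000035180 with IL-15 was at 60.6 CPM in animal 38147 at 12 h, against 4.99 to 14.02 CPM, and at 39.7 CPM in the same animal at 24 h, against 2.79 to 6.76 CPM. ENSMFAG00000030667 in control at 12 h was at 206 CPM in animal 38142 and at 107.7 to 115.2 CPM in the others. Of these 4 values, 3 thus came from IL-15 cultures of animal 38147.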

How the results depend on the processing

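The count of 55 members followed the limits of the choice: 138 genes with late effects at -0.8 or lower, 18 at -1.2, 35 with a control change below 0.5, 86 with no limit on it and 29 with TMM scaling. The other 12 alternatives, which included leaving out an animal (39 to 77), kept it within 1.5 times. A like count did not mean the same genes: with the median of the animals in place of their mean, 37 of the 55 genes returned were members. The 23 members lower at 6 h were 15 to 22 with an animal left out, 39 with both groups alone, 7 with no replicate block for the animal and 28 with animal and time as the block. The share of all genes called lower moved with these counts, at 1.62% to 2.85%, 14.3%, 0.506% and 6.04%, from 3.54% in the main fit. Of 15 alternatives 12 were within 1.5 times. None was higher at 6 h in the main fit, and 1 was with both groups alone and with single libraries and the library number as block. In control at 6 h against 0 h, the 15 lower members were 24 with both groups alone, 7 with no animal block, and 26 with single libraries, whether the number was the block or the token a term. The 6 higher members were 11 and 12 in these last fits. The 40 lower members with IL-15 at 6 h against 0 h were 19 with no animal block. The 1 higher member in that comparison was 2 with both groups alone and with single libraries. The cause of these shifts was not tested. No other call in the comparisons at 6 h moved by over 1.5 times with the pairing. The library number is only a label here. What depth limits in these counts was not tested.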

Other observations

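In the table with rhesus gene IDs the same choice returned 54 genes of 10772 at 5 CPM or above, 0.501%, where the cynomolgus table gave 0.509%. Their median IL-15 effects were -0.10, -0.46, -1.21, -1.57 and -1.35 at 2, 6, 12, 24 and 48 h. With these members, an alternative chosen after seeing the data, edgeR returned 24 of the 54 as lower at 6 h and 0 as higher, against 4.35% of all genes in that table as lower. Both tables count the same libraries, so the values are not independent, and the IDs of the tables were not matched to each other.

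Across the 55 members the effect at 6 h had a Pearson correlation of -0.55 with the control change at 6 h and -0.41 with that at 24 h. The first pair of measures shares the control sums at 6 h. The effect at 24 h had a correlation of -0.31 with the log2 level at 0 h. All are descriptions over members that share the 4 animals.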
